A study of Mus musculus with 6 samples.

Results

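The epidermal growth factor (EGF) family and its receptors were examined in mouse embryonic fibroblasts (MEF), cells of connective tissue origin that grow attached, by RNA sequencing of cells that had passed through 3 μm pores. The 10 genes were chosen by name: 6 ligands (Areg, Ereg, Hbegf, Tgfa, Btc and Nrg1), 3 receptors (Egfr, Erbb2 and Erbb3) and the receptor inhibitor Errfi1. All 10 were found by gene identifier among the 55335 genes of the count table. Both groups were wild-type MEF, and the labels name 1 growth medium with serum for all samples. Which medium filled the transwell is not given for these libraries, and the study's migration assay with wider pores had medium free of serum above the membrane and complete medium below it. Ctrl were parental cells, and Confine were the cells collected after 15 h from the far side of a transwell membrane with 3 μm pores. Each group has 3 deposited columns. Those of Confine replicates 1 and 2 are identical in every one of the 55335 genes and entered as a single sample, leaving 3 Ctrl and 2 Confine libraries. The labels do not say whether libraries of a group came from separate cultures, so the p-values measure only the spread between these libraries. Passage through the pores, culture on the membrane, any difference in serum and selection of the cells able to pass cannot be told apart in this design.

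EGF family ligands are made as membrane proteins, and metalloproteases of the ADAM family cut them at the cell surface to release the soluble factor. The ligands bind ERBB receptors, which then pair, phosphorylate each other and signal through the RAS-ERK and PI3K routes. AREG, TGF-α and EGF bind EGFR, HB-EGF, epiregulin and betacellulin bind EGFR and ERBB4, and neuregulin 1 binds ERBB3 and ERBB4. ERBB2 binds no ligand of its own and acts as the preferred partner of the others. ERRFI1 (also called MIG6) is made in response to receptor signalling and inhibits the kinase of the ERBB receptors. In fibroblasts these factors are known for driving growth and migration.

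The libraries held between 22287210 and 32537550 counts. Floors from low counts cover counting error only, whereas the 95% intervals of differences come from the edgeR fit and cover the spread between these libraries. Values are CPM, counts scaled to a common library total, after TMM normalization, which rescales each library for its composition, and a floor of 3 counts corresponds to 0.101 to 0.128 CPM. Differences were tested with edgeR's quasi-likelihood test over the 15881 genes with enough counts, with Benjamini-Hochberg adjustment. A gene is said to have risen or fallen at an adjusted p under 0.05. At that threshold 23% of tested genes changed, of which the upward share was 12.8% and the downward share 10.2% of tested genes, and 4.89% rose by more than 1.5 on the log2 scale, the cutoff the study used on its fold changes. The number past the threshold was 3654 genes, and it was 2256 without Confine replicate 1 and 2054 without Confine replicate 3. Library size alone in place of TMM moved the median log2 fold change of all tested genes to -0.21 from -0.0021.

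Among the 6 members with enough counts to be tested, the ligands Hbegf and Ereg and the inhibitor Errfi1 rose in Confine, and none fell at the threshold. That is 3 of the 10 members and 3 of the 6 tested, against 12.8% of all tested genes, and each was also past 1.5, against 4.89%. The values of the groups did not overlap for 5 of the 6, against 49.5% of all tested genes, upward for 4 and downward for Nrg1. DESeq2 and limma-voom also gave 0 members that fell. By unadjusted p, 5 of the 6 were under 0.05 with edgeR, against 34.4% of all tested genes, and of the 5 only Nrg1 was lower in Confine. The other 4 members, Areg, Tgfa, Btc and Erbb3, did not pass the filter on low counts.

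Hbegf encodes HB-EGF, a heparin-binding ligand that is active both as the membrane form and after release. It had 57.6, 59.3 and 40.5 CPM in Ctrl replicates 1, 2 and 3, against 586 CPM in Confine replicate 1 and 574 CPM in Confine replicate 3. The lowest Confine library was thus far above the highest Ctrl library, and the Confine libraries lay close together. The means were 52.5 ± 10.4 CPM (SD, n = 3) in Ctrl and 580 ± 8.04 CPM (SD, n = 2) in Confine. On the log2 scale the difference was 3.47 ± 0.20 (SE, edgeR adjusted p = 6.25e-10), or 11.1-fold with a 95% interval from 8.26 to 14.8. By log2 fold change Hbegf stood at place 130 of the 15881 tested genes. In bulk RNA, more expressing cells and more RNA per cell cannot be told apart. Hbegf spans 36504927 to 36515805 of chromosome 18 (GRCm38, minus strand), and it overlaps no other annotated gene.

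Ereg encodes epiregulin, a ligand of low affinity and prolonged action. It had 4.70, 3.82 and 3.57 CPM in Ctrl, against 12.8 and 10.3 CPM in Confine, from 84 to 378 counts. The groups did not overlap. Its log2 difference was 1.51 ± 0.24 (SE, edgeR adjusted p = 1.22e-04), or 2.86-fold with a 95% interval from 2.01 to 4.05. This sits on the study's cutoff of 1.5 and was 1.31 with library size alone. Tested against a log2 fold change of 1, Ereg had an edgeR (glmTreat) adjusted p of 0.0937, while Hbegf and Errfi1 passed.

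Nrg1 encodes neuregulin 1, a ligand best known for its action on Schwann cells, heart and muscle. It had 135, 144 and 145 CPM in Ctrl, against 86.4 and 118.9 CPM in Confine. Both Confine libraries were below all Ctrl libraries, and they differed from each other by more than the Ctrl libraries did. The log2 fold change of -0.46 (standard error 0.19) did not pass the threshold (edgeR adjusted p = 0.0890). It was -0.71 without Confine replicate 3 and -0.25 without Confine replicate 1, and the adjusted p ran from 0.0134 with library size alone to 1.00 with the test against a log2 fold change of 1, over the 17 alternatives. Nrg1 shares 482 bases of its exons with the opposite-strand gene Gm26578, which has no row in the count table.

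Btc (betacellulin) had 2, 1 and 4 counts in Ctrl and 18 and 6 counts in Confine. Tgfa (TGF-α) had 2, 1 and 1 counts in Ctrl and 8 and 2 in Confine. Both thus lay higher in Confine replicate 1 than in any other library, at levels that rest on few reads. Without the filter on low counts, the edgeR adjusted p was 0.110 for Btc and 0.538 for Tgfa. Areg (amphiregulin) had 0, 1 and 1 counts in Ctrl and 0 and 2 in Confine, which is under the floor in every library. A change of Areg was not detectable at this depth.

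**Figure D1:**
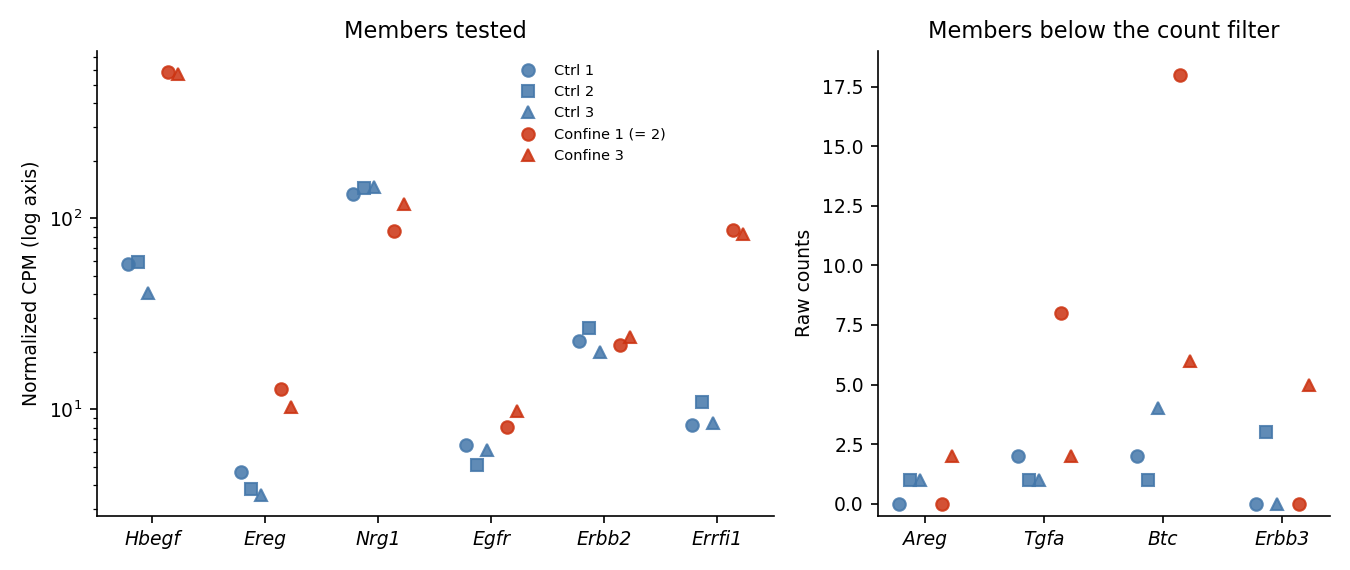
Normalized CPM on a log axis for the 6 tested members (left) and raw counts for the 4 members below the count filter (right), with 1 point per library, Ctrl in blue and Confine in red. Hbegf and Errfi1 are separated by the widest gaps, with Hbegf at 40.5 to 59.3 CPM in Ctrl and 574 to 586 CPM in Confine, while the points of Erbb2 overlap.

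The receptors did not pass the threshold. Egfr, the receptor of EGF, TGF-α, amphiregulin and HB-EGF, had 6.53, 5.10 and 6.12 CPM in Ctrl and 8.07 and 9.77 CPM in Confine. The groups did not overlap, as was the case upward for 25.9% of all tested genes. The log2 difference was 0.59 ± 0.24 (SE, edgeR adjusted p = 0.0815), with a 95% interval from 0.095 to 1.09. Erbb2, the partner receptor without a ligand, had 22.7, 26.6 and 20.0 CPM in Ctrl and 21.7 and 23.9 CPM in Confine, and the groups overlapped. Its log2 difference was -0.021 ± 0.19 (SE, edgeR adjusted p = 0.955), and the 95% interval ran from -0.43 to 0.39. A change of Erbb2 by more than 1.35-fold downward or 1.31-fold upward lies outside that interval. Erbb3, whose kinase is weak and which signals through its partners, had 0, 3 and 0 counts in Ctrl and 0 and 5 in Confine. Its upper limit from 0 counts was 0.104 CPM in Ctrl replicate 1 and 0.101 CPM in Confine replicate 1.

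Errfi1, the inhibitor of the receptors' kinase, rose. It had 8.26, 10.9 and 8.46 CPM in Ctrl and 86.6 and 82.7 CPM in Confine, and the libraries within each group lay close together. The means were 9.20 ± 1.46 CPM (SD, n = 3) and 84.6 ± 2.78 CPM (SD, n = 2). Its log2 difference was 3.20 ± 0.19 (SE, edgeR adjusted p = 1.27e-09), or 9.19-fold with a 95% interval from 6.93 to 12.2, at place 161 of 15881. No other gene shares exon bases with Errfi1, which lies on the plus strand of chromosome 4 from 150853919 to 150868892 (GRCm38).

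The exact permutation test over libraries gave a two-sided p of 0.1 for Hbegf, Ereg, Errfi1, Egfr and Nrg1 alike, which is the smallest p that 3 libraries against 2 allow, and 1.0 for Erbb2.

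**Figure D2:**
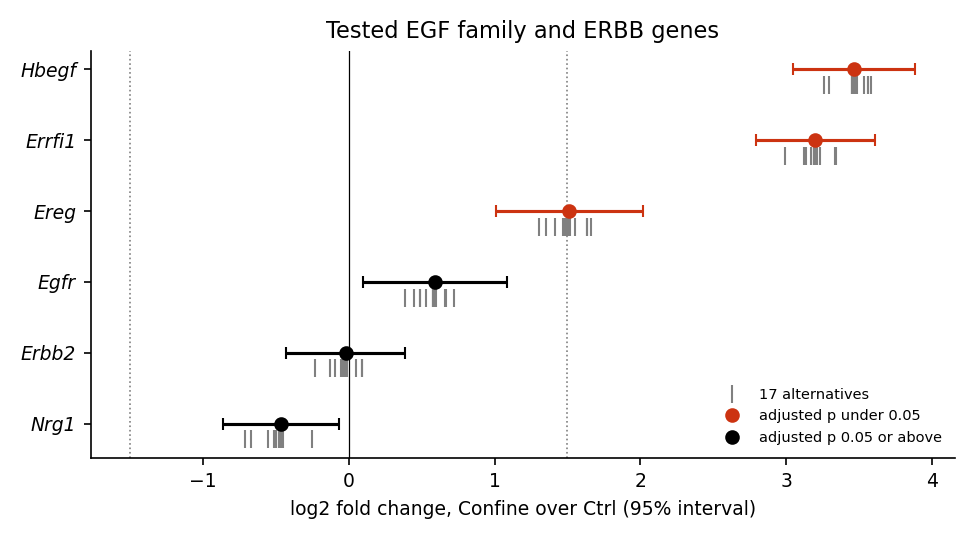
Log2 fold change of Confine over Ctrl for the 6 tested members, with 95% intervals from edgeR, red where the adjusted p is under 0.05, and grey ticks for the 17 alternative settings. Hbegf at 3.47 and Errfi1 at 3.20 keep their ticks above the dotted line at 1.5, whereas the ticks of Ereg fall on both sides of it and those of Erbb2 on both sides of 0.

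The promoter windows of RefSeq (GRCm38.p6, 250 bases before to 50 after a start) were matched for 6 of the 10 members, in 7 windows, of which 2 belong to Errfi1. Hbegf, Ereg, Nrg1 and Erbb3 had no matched window. Both Errfi1 windows are shown because it rose, and that of Areg because it stayed under the floor. Capitals mark the letters TGANTCA (the AP-1 site), ACGTG (the core bound by hypoxia-inducible factors), TATAAA and TGACG (the core of the cAMP response element), searched on both strands, and matches on opposite strands may overlap.
Errfi1, chr4:150853546-150853845, plus strand: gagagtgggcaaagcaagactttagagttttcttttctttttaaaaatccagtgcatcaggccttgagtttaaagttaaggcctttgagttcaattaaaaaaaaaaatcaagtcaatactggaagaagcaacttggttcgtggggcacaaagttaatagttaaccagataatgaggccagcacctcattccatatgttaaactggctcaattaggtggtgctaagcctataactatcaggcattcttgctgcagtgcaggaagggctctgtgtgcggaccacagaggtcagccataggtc
Errfi1, chr4:150854820-150855119, plus strand: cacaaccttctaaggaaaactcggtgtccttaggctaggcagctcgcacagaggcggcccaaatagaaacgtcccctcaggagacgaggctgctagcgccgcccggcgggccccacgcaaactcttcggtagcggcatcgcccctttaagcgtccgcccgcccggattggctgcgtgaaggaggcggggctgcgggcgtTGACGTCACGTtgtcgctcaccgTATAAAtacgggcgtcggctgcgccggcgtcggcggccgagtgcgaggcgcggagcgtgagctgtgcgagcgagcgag
Areg, chr5:91139349-91139648, plus strand: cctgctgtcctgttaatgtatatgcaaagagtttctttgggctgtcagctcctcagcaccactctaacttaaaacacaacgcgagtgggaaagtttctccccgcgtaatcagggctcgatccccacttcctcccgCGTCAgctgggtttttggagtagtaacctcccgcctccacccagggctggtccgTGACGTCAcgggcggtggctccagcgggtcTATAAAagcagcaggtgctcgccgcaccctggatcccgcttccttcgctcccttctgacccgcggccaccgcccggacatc
The first Errfi1 window has a GC content of 42.0% and holds none of the letters. The other has a GC content of 66.7% and holds TGACG 2 times, ACGTG 1 time and TATAAA 1 time, with the TGACG and ACGTG matches in 1 overlapping run. The window of Areg, at 59.3% GC, likewise holds TATAAA 1 time and TGACG 3 times. Of all 32851 windows of this length, 20.8% hold TGACG, 19.6% ACGTG, 13.6% TATAAA and 7.81% TGANTCA. The letters TGANTCA were in 0 of the 7 members' windows, which do not cover Hbegf, Ereg, Nrg1 or Erbb3. A gene-level count does not tell from which start the Errfi1 reads came.

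Per length of exon (RPKM, from normalized CPM over the union of annotated exons), the order of levels in Ctrl was Nrg1 (13.7), Hbegf (10.9), Erbb2 (4.44), Errfi1 (2.57), Ereg (0.976) and Egfr (0.523). In Confine it was Hbegf (120.0), Errfi1 (23.6), Nrg1 (9.92), Erbb2 (4.37), Ereg (2.79) and Egfr (0.788). Neighbours in either order had ranges over libraries that did not overlap. Areg, Tgfa, Btc and Erbb3 were at or below 0.135 RPKM in every library. The union of exons counts all isoforms, and for the isoform-rich Nrg1 (10351 bases) it makes the RPKM a low estimate. Among the ligands, Hbegf made up 45.6%, 45.2% and 35.9% of the summed RPKM in Ctrl, against 91.3% and 89.4% in Confine. The share of Nrg1 was between 49.9% and 60.1% in Ctrl and 6.29% and 8.64% in Confine, and that of Ereg was 3.40% to 4.36% in Ctrl and 2.33% and 1.87% in Confine. Shares of 1 sum move together: that of Ereg was lower in Confine although its level rose, and the level of Nrg1 did not pass the test. The sum over the 6 ligands was 25.5 ± 1.98 RPKM (SD, n = 3) in Ctrl and 132.8 ± 0.0984 RPKM (SD, n = 2) in Confine.

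**Figure D3:**
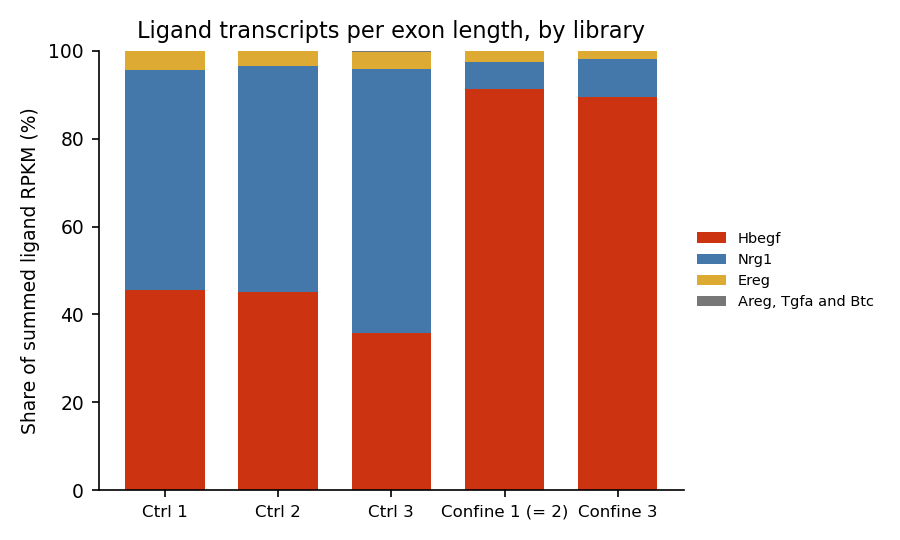
Share of each ligand in the summed RPKM of the 6 ligands (percent, stacked bars), for each distinct library. Hbegf takes 35.9% to 45.6% in Ctrl and 89.4% to 91.3% in Confine, and Nrg1 is the largest share in the 3 Ctrl libraries.

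Ratios of raw counts within a library do not depend on the normalization between libraries. There were 0.279 to 0.427 Hbegf counts per Nrg1 count in Ctrl and 4.83 to 6.78 in Confine. Hbegf had 6.61 to 11.6 counts per Egfr count in Ctrl and 58.8 to 72.5 in Confine, and Errfi1 had 1.26 to 2.13 per Egfr count in Ctrl and 8.46 to 10.7 in Confine. These ligand and inhibitor ratios did not overlap between groups. The ratio of Hbegf to Errfi1 was 4.78 to 6.97 in Ctrl and 6.76 to 6.95 in Confine, and there the groups overlapped. The ratio of Egfr to Erbb2 was 0.192 to 0.306 in Ctrl and 0.372 to 0.409 in Confine, and there the groups did not overlap either. How often the ratios of other gene pairs separate the groups was not computed.

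The EGFR ligand genes Epgn, Ereg, Areg and Btc lie side by side on chromosome 5 of GRCm38, at Epgn (91027464 to 91035215), Ereg (91074622 to 91093646), Areg (91139599 to 91148432) and Btc (91357261 to 91402994). No other protein-coding gene is annotated in this span of 376 kb. Ereg had 84 to 378 counts per library, while Epgn (epigen) had at most 3, Areg at most 2 and Btc at most 18. Transcripts of this cluster were therefore nearly all from Ereg in both groups.

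Of 11 fibroblast markers, 7 were tested, of which 4 rose (Col1a1, Col3a1, Vim and Pdgfra) and 0 fell, against 12.8% and 10.2% of all tested genes. Col1a2 (log2 fold change 0.24), Pdgfrb (-0.36) and S100a4 (-0.28) did not pass the threshold, and the last 2 were lower in Confine. With library size alone Pdgfrb fell and Col1a1 did not pass, nor did Col1a1 pass without Ctrl replicate 3. The type I collagen genes, Vim and Pdgfrb were abundant, while no library had more than 2 counts of Thy1, Lum or Fap or more than 27 of Dcn. The summed level of the 11 markers was 8091 to 8830 CPM in Ctrl and 14201 to 14882 CPM in Confine. The 8 epithelial markers summed to at most 0.675 CPM in any library, with Epcam, Krt18 and Cldn4 at 0 counts throughout. The 5 endothelial markers summed to at most 0.718 CPM. The 5 Schwann cell markers summed to 1.31 to 1.81 CPM in Ctrl and 1.83 to 2.91 CPM in Confine, with the defining gene Sox10 at 0. The 8 leukocyte markers summed to 7.23 to 8.39 CPM in Ctrl and 18.3 to 25.9 CPM in Confine. All 3 of them that could be tested differed, against 23% of all tested genes: Cd68 and Csf1r rose and Lyz2 fell. Csf1r did not pass with library size alone or DESeq2, nor without Ctrl replicate 2, Ctrl replicate 3, Confine replicate 1 or Confine replicate 3, which left 1 that rose. Ptprc, the pan-leukocyte surface phosphatase, had at most 2 counts and Adgre1 had 0. The part of these markers in the members' results was not tested.

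The other ligands and receptor of the family were near or under detection. Nrg2, Nrg3 and Erbb4 had 0 counts in every library, which allows at most 0.101 to 0.128 CPM. Egf had 20 to 32 counts and Nrg4 had 1 to 25 counts per library, and neither passed the threshold (edgeR adjusted p = 0.690 and 0.855).

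The lists below were written by function, with earlier results of these data known. Of 11 genes for ligand shedding, 10 were tested, of which 3 rose and 0 fell, against 12.8% and 10.2% of all tested genes. The median log2 fold change was 0.29 against -0.0021 over all tested genes. The metalloproteases Adam19 (2.23, standard error 0.22, edgeR adjusted p = 6.58e-07) and Adam12 (1.88, standard error 0.28, edgeR adjusted p = 6.57e-05) rose most. Adam17, the main sheddase of several EGFR ligands, rose by 0.65 on the log2 scale (edgeR adjusted p = 0.0113). Adam17 did not pass the threshold with library size alone, nor without Ctrl replicate 1, Confine replicate 1 or Confine replicate 3, which left 2 genes each time. Adam10, the other general sheddase, had 494 CPM in Ctrl and 559 CPM in Confine, and Rhbdf1, which escorts ADAM17, had 37.5 and 49.0 CPM. Neither passed the threshold. Timp3, an inhibitor of ADAM17, had 124.9 and 145 CPM and did not pass it either.

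Of 16 genes listed for the attenuation, sorting or turnover of ERBB receptors, all were tested, of which 5 rose and 1 fell. This stands against 12.8% and 10.2% of all tested genes. The median log2 fold change of the list was 0.22. Lrig1, a membrane protein that lowers ERBB receptor levels, had 17.5 CPM in Ctrl and 39.9 CPM in Confine (log2 fold change 1.19, edgeR adjusted p = 1.30e-04). Cblb, a ubiquitin ligase for active receptors, had 7.57 and 17.2 CPM (log2 fold change 1.18, edgeR adjusted p = 5.61e-04). Lrig2 (0.76) and Stam (0.55) rose less, as did Sh3kbp1 (0.53), and Lrig3 fell by 0.86 on the log2 scale. The genes that rose numbered 3 without Ctrl replicate 1 and 2 without Ctrl replicate 3, Confine replicate 1 or Confine replicate 3 or with library size alone, and Lrig1 and Cblb were among them each time. The fall of Lrig3 did not pass without either Confine library. Cbl itself had 25.6 CPM in Ctrl and 28.6 CPM in Confine and did not pass the threshold.

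Of 24 genes that relay the signal from the receptor to ERK and PI3K, 1 rose and 1 fell. The shares of all tested genes were 12.8% and 10.2%. The median log2 fold change of the list was 0.11. Map2k1, which encodes the ERK kinase MEK1, had 30.2 CPM in Ctrl and 66.9 CPM in Confine (log2 fold change 1.15, edgeR adjusted p = 3.05e-04). Pik3r3, a regulatory subunit of PI3K, had 8.05 and 1.72 CPM (log2 fold change -2.21, edgeR adjusted p = 4.79e-05). The genes that fell numbered 6 with library size alone and 2 without Ctrl replicate 3, and those that rose numbered 5 without Ctrl replicate 2. The median of the list was -0.11 with library size alone and -0.062 without Confine replicate 1.

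Of 15 genes that respond to ERK signalling in many cells, 13 were tested, of which 7 rose and 1 fell. This stands against 12.8% and 10.2% of all tested genes. The median log2 fold change of the list was 0.74. Ier3 had 176 CPM in Ctrl and 1221 CPM in Confine (log2 fold change 2.79, edgeR adjusted p = 2.92e-09). Fosl1, an AP-1 subunit, had 15.9 and 110 CPM (log2 fold change 2.79, edgeR adjusted p = 1.64e-07). Dusp5, a nuclear ERK phosphatase, rose by 1.66 and Etv4, an ETS factor, by 1.14 on the log2 scale. Fos, the early AP-1 subunit, fell, with 20.7 CPM in Ctrl and 3.11 CPM in Confine (log2 fold change -2.74, edgeR adjusted p = 8.10e-05). Egr1 had 31.2 and 37.9 CPM and did not pass the threshold. Dusp4 and Spry1 did not pass the filter on low counts. Dusp4 had 0 counts in every Ctrl library and 11 and 13 in Confine, and Spry1 had 0 to 3 counts per library. Without that filter 8 genes of the list rose, Dusp4 among them. The genes that rose numbered 4 without Confine replicate 3 and 10 without Ctrl replicate 2, and Ier3, Fosl1 and Dusp5 were among them both times.

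Of 5 surface proteins and proteoglycans known to bind or assist HB-EGF, 4 rose and 0 fell, against 12.8% and 10.2% of all tested genes. The median log2 fold change of the list was 0.75. Sdc4, a heparan sulfate proteoglycan, had 2528 CPM in Ctrl and 11241 CPM in Confine (log2 fold change 2.15, edgeR adjusted p = 1.33e-07). The glypican Gpc1 rose by 0.97, Cd44 by 0.75 (not past the threshold without Ctrl replicate 3) and Cd9, the tetraspanin that partners membrane HB-EGF, by 0.72 on the log2 scale. Without Confine replicate 1, 2 of them rose, Sdc4 and Gpc1.

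**Figure D4:**
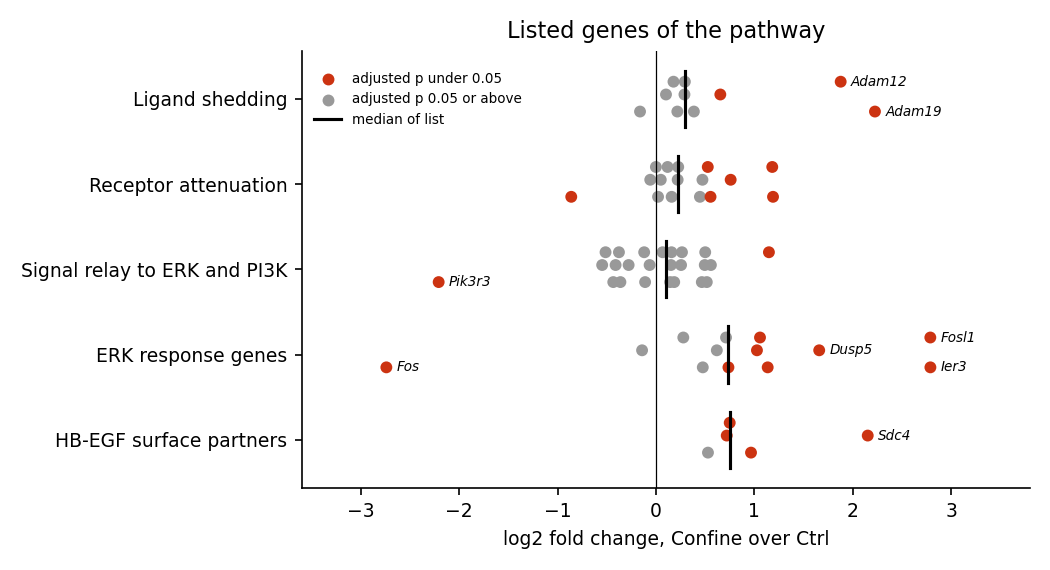
Log2 fold change of Confine over Ctrl for the tested genes of 5 lists around the ERBB pathway, 1 point per gene, red where edgeR's adjusted p is under 0.05, with the median of each list as a black bar. The medians run from 0.11 for signal relay to 0.75 for the HB-EGF surface partners, and genes beyond 1.5 in size are named.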

How the data were processed

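The authors purified polyadenylated RNA and removed the dUTP-marked second strand. The submitters' processing notes list Trim Galore 0.6.10, HISAT2 2.1.0, SAMtools 1.5, featureCounts and the build mm10, and the annotation and strand setting are not given in the sources used here. The authors deposited raw counts per gene, without normalization, in 6 columns, of which 0 were left unused and 2 are identical and entered once. Gene names, positions and exon lengths came from GENCODE M21 (GRCm38), with 55154 of 55335 identifiers matched without version.

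Genes were filtered with filterByExpr of edgeR 4.0.16, scaled by TMM and compared with edgeR's quasi-likelihood F-test in R 4.3.3, with group as the only factor (3 residual degrees of freedom). Standard errors were taken from the log2 fold change and its F statistic. The alternatives used DESeq2 1.42.0 and limma 3.58.1 (voom), other normalizations, filters and call rules, a replicate block and each library left out. Similar sequence in other genes was searched with blastn 2.17.0 at 95% identity or more over at least 100 bases. The fit was tested on simulated counts.

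The members and gene lists were chosen with earlier results of these data known. All members were named, and of each list the genes past the threshold with the largest change, at most 4 in each direction, beside some others chosen after their values were seen.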

Additional observations from a re-analysis of the deposited data

How the results depend on the processing

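Hbegf and Errfi1 rose under all 17 alternatives, with log2 fold changes from 3.26 to 3.58 and from 2.99 to 3.34. Ereg rose in all but the test against a log2 fold change of 1, with values from 1.31 to 1.66. Egfr passed the threshold only with the identical columns counted as 2 samples (0.53, adjusted p = 0.0350). The number of members that rose was 2 with the test against a log2 fold change of 1, 4 with the repeated columns as separate samples and 3 otherwise. The number that fell was 0, and 1 (Nrg1) with library size alone, with the repeated columns as separate samples and with the replicate block that takes the repeated library as number 1. Erbb2 changed sign with that block, to 0.093, and ranged from -0.13 to 0.088 over the fits without a library. The genes past the threshold numbered 3654, 1271 with the fold change cutoff, 844 with the test against a log2 fold change of 1 and from 2054 to 4426 with each library left out. Where 1 Confine library was left, it is assumed to vary like the Ctrl libraries. With library size alone 34.0% of the genes past the threshold were higher, against 55.7% with TMM.

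The labels do not say that replicate numbers pair libraries, and the repeated Confine library bears 2 numbers. Deviations from the group means correlated across genes at 0.15 for number 1, -0.13 for number 2 and -0.025 for number 3, and genes are not independent replicates. The deviations of the 2 Confine libraries mirror each other and those of Ctrl cancel out, so these values are not separate checks of pairing. With the replicate block, which leaves 1 residual degree of freedom, 4933 genes passed with the repeated library as number 1 and 2528 as number 2. As number 2, the rises of Adam17, Stam, Sh3kbp1 and Cd9 and the fall of Lrig3 did not pass, and Csf1r did not pass with either number. As number 1 the block leaves Ctrl replicate 2 without a partner, and as number 2 it leaves Ctrl replicate 1 without one. A library without a partner adds nothing to the group difference in such a fit. The log2 fold change of Egfr was 0.487 as number 1 and 0.489 without Ctrl replicate 2. As number 2 it was 0.667, and 0.663 without Ctrl replicate 1. How far pairing itself contributed to these changes was not tested. Depth limits Areg, Tgfa, Btc and Erbb3, which had at most 18 counts in any library.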

Other observations

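The tested genes whose log2(CPM + 1) followed Hbegf most closely over the 5 distinct libraries were Trim3 (Pearson's r = 0.9998), Gpr162 (r = 0.9996) and Slc15a1 (r = 0.9996), and 211 of the 15880 other genes had an r above 0.99. With 2 groups and 5 libraries such values mainly reflect the difference between the groups, and they are given as a description. Against a log2 fold change of 3.47 for Hbegf, that of Trim3, which encodes a ubiquitin ligase, was 0.62, that of Gpr162, an orphan receptor, was 1.75 and that of Slc15a1, an oligopeptide transporter of the intestine, was 3.76. Slc15a1 had 0.0241 CPM in Ctrl and 0.401 CPM in Confine, so its pattern rests on few reads.

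Gm19610, an antisense gene that shares 141 exon bases with Ereg, had 16 to 28 counts in Ctrl and 30 to 40 in Confine. Its log2 fold change of 0.69 (edgeR adjusted p = 0.306) did not pass the threshold. At 95% identity or more, the exons of Tgfa also matched Gm43917 over 119 bases and those of Egfr matched Olfr798 over 100 bases, so reads there are uncertain. Gm43917 overlaps Tgfa itself on the opposite strand and shares 118 exon bases with it. Areg, Hbegf, Btc, Erbb2, Erbb3 and Errfi1 had 0 matches to other genes at this identity. The bases shared with Gm19610 are 3.42% of the exons of Ereg. The strand setting of the counting is not given in the sources used here, and without strand the reads of both genes cannot be told apart in these bases.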
